A study of Mus musculus with 10 samples.

Results

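Elastin and the genes of elastic fibre building were followed through 10 RNA-seq libraries of mouse hearts. The set has 9 members, chosen by gene symbol from both deposited tables, out of 46786 genes measured at 3 months and 46977 at 12 months. They are Eln, Fbn1, Mfap4, Mfap5, Fbln5, Efemp2, Emilin1, Lox and Loxl1. The set was drawn up because Eln was far lower in the 12-month knockout hearts, so the member values at 12 months are given as a description and no p is given for their difference at that age. The samples were Prdm16 knockout and control hearts, with 3 knockout and 3 control libraries at 3 months of age and 2 knockout and 2 control libraries at 12 months. Prdm16 encodes a zinc-finger transcriptional regulator, and the study asked how its loss affects the heart with age. The sources used here do not give the allele, any Cre driver, the strain or the sex of the mice. No treatment is named for either genotype.

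Elastic fibres give arteries, valves and other moving tissues their recoil. Cells such as vascular smooth muscle cells and fibroblasts secrete tropoelastin, which is deposited on a scaffold of fibrillin microfibrils with the help of fibulins and is then crosslinked by lysyl oxidases. In the heart, elastic fibres lie in the roots of the great vessels, the coronary arteries, the valves and the epicardium, and most elastin is laid down early in life and turns over slowly.

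Values were FPKM, which scale fragment numbers by transcript length and library depth, so levels can be compared between genes per length. A gene was tested at an age where its libraries averaged 1 FPKM or more, on log2(FPKM + 1), and log2 differences are knockout minus control on that scale. All 9 members passed this filter at both ages. The test was limma with Benjamini-Hochberg adjustment over all tested genes, and a gene was called at an adjusted p under 0.05. Whether each library is a separate animal is not stated, so p-values measure only the spread between these samples. Hearts were sequenced in bulk, so fewer cells of a type and less RNA per cell cannot be told apart.

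Some facts of the libraries touch every value that follows. Prdm16 itself overlapped between the groups at 3 months (0.76 to 2.03 FPKM in knockout and 1.44 to 2.23 in control libraries; limma, Benjamini-Hochberg adjusted p = 0.602). At 12 months it stood at 3.58 to 4.02 FPKM in knockout and 5.05 to 6.31 in control libraries (adjusted p = 0.34). Reads from exons outside a deleted stretch count towards the gene, so this is a weak check of the labels. The cardiomyocyte marker Actc1 stood at 4984 to 8206 FPKM in the knockout libraries of both ages and 5301 to 7687 in the control libraries. Sex-linked genes split the 12-month labels, with Xist at 0.0911 FPKM or lower in knockout and 31.0 FPKM or higher in control libraries, and Ddx3y at 20.7 FPKM or higher in knockout and 0.0352 FPKM or lower in control libraries, so genotype and sex-linked expression cannot be told apart in any 12-month difference. The 12-month controls were close to each other (robust SD of the log2 ratio 0.113), and the 12-month knockout libraries were farther apart (0.416). Steps in the low 12-month values put the depth of knockout libraries 1 and 2 at 0.888 and 0.729 of that of control library 1, and that of control library 2 at 1.05. The depth at 3 months is unknown.

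Elastin, the monomer of the fibre core, was the member with the biggest difference. Eln (chr5:134702593-134747323, minus strand, GRCm38, 37 exons in its principal transcript) stood at 9.94 and 9.91 FPKM in the 12-month knockout hearts, against 69.3 and 68.3 FPKM in the 12-month control hearts. Both knockout libraries were low and almost equal, both control libraries were high and almost equal, and the groups were far apart. The means were 9.93 ± 0.022 FPKM in knockout and 68.8 ± 0.718 FPKM in control hearts (SD, n = 2 each), a knockout over control ratio of 0.144 and a log2 difference of −2.68 (SE 0.10). Of the 13179 genes tested at 12 months, 33 had a lower log2 difference, or 0.25%. Eln was the 6196th and 6048th gene by FPKM in the knockout libraries and the 1067th and 1096th in the control libraries.

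At 3 months the Eln levels of the genotypes overlapped. The knockout hearts had 12.0, 18.7 and 15.8 FPKM, against 10.1, 13.4 and 19.5 FPKM in the control hearts. The lowest and the highest of the 6 libraries were both controls. The means were 15.5 ± 3.36 FPKM in knockout and 14.3 ± 4.78 FPKM in control hearts (SD, n = 3 each). The limma log2 difference was 0.13, with SE 0.23 and Benjamini-Hochberg adjusted p = 0.799. The sign turned without control replicate 1 (−0.08) or without knockout replicate 2 (−0.01).

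**Figure D1:**
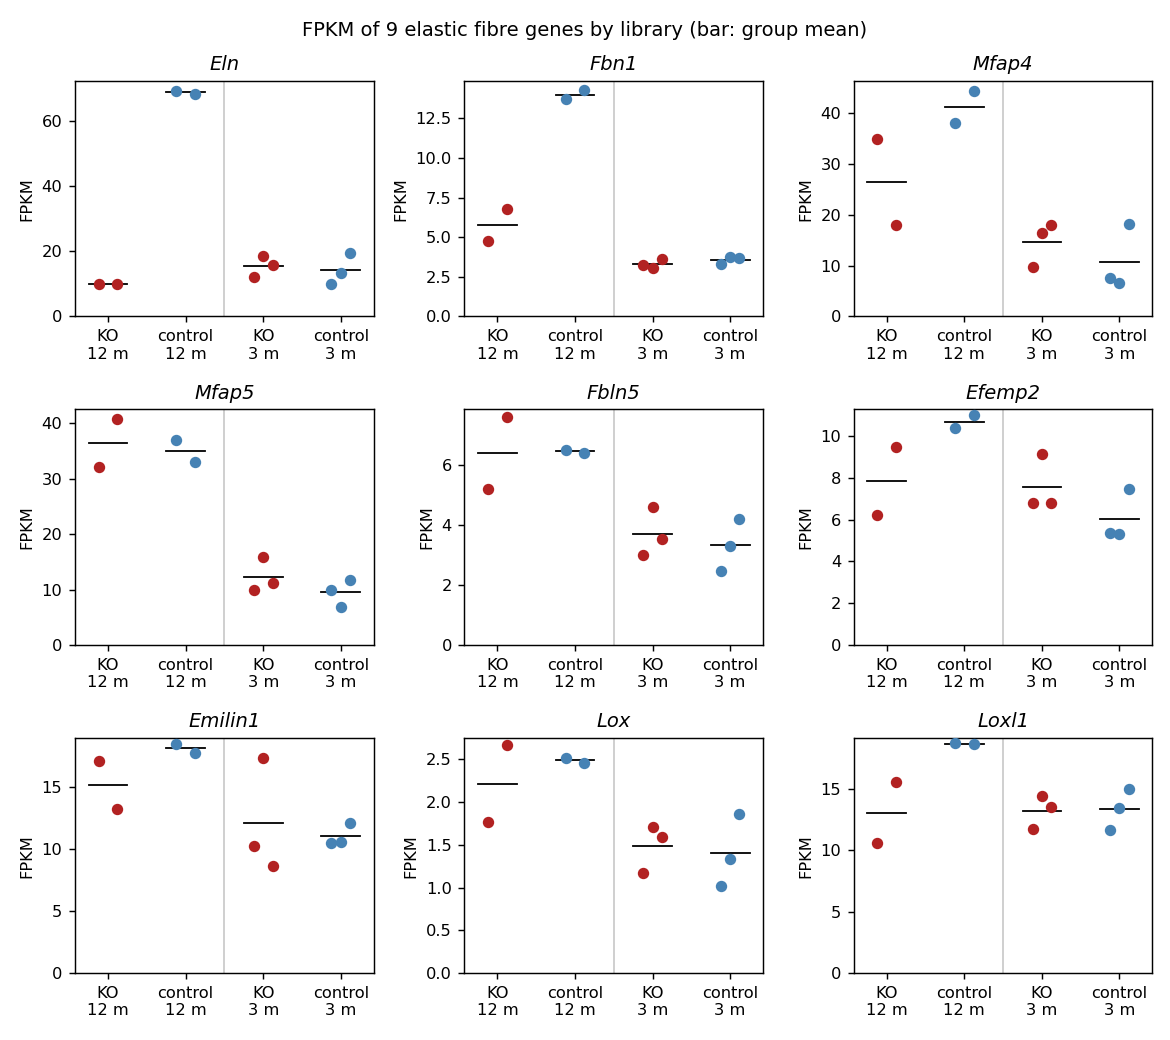
FPKM of the 9 elastic fibre genes in each of the 10 heart libraries, 1 panel per gene with its own axis from 0, knockout points left of control points within each age, and a bar at each group mean. At 12 months Eln is the panel with the widest gap, at 9.94 and 9.91 FPKM in knockout against 69.3 and 68.3 in control, and at 3 months the groups of every panel overlap.

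The change of the Eln difference with age was read from a limma interaction contrast over all 10 libraries, the difference of the within-age differences. It was −2.81 for Eln (SE 0.34; Benjamini-Hochberg adjusted p = 0.00261), and it stayed called in 16 of 16 alternatives, from −3.04 to −2.6. Fbn1 was called as well (−1.09, SE 0.21, adjusted p = 0.0311), in the same direction. Of all 11580 genes tested at both ages, 160, or 1.38%, were called, and 84 of them, or 0.725%, were lower at 12 months. The contrast uses the 12-month values for which the set was drawn up, so it adds no independent evidence for Eln. Sex-linked genes split the labels at 12 months and not at 3 months, and table and library preparation also differ between the ages. Age cannot be told apart from that split, from the table or from the preparation in the contrast. The Fbn1 call held in 6 of 15 alternatives and was lost without either 12-month control (−1.12 without replicate 1 and −1.06 without replicate 2) and without 5 of the 6 libraries of 3 months (−1.11 to −1.03). It was also lost with TPM scaling (−1.28, adjusted p = 0.067) and with no filter (−1.09, adjusted p = 0.0599).

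The microfibril genes make the scaffold on which elastin is laid. Fbn1 (chr2:125300594-125507993, minus strand, 66 exons) encodes fibrillin-1, the main microfibril protein. At 12 months it had 4.74 and 6.76 FPKM in knockout hearts, against 13.7 and 14.3 FPKM in control hearts. Both knockout libraries were low, and the groups did not overlap. The means were 5.75 ± 1.43 FPKM in knockout and 14.0 ± 0.431 FPKM in control hearts (SD, n = 2 each), a ratio of 0.411 and a log2 difference of −1.17 (SE 0.18). A lower log2 difference was found for 1.35% of all tested genes. Fbn1 was not called at 12 months.

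At 3 months Fbn1 had 3.27, 3.08 and 3.65 FPKM in knockout hearts, against 3.29, 3.74 and 3.7 FPKM in control hearts. The ranges overlapped at their ends, with a limma log2 difference of −0.08 (SE 0.12, Benjamini-Hochberg adjusted p = 0.751). Fbn1 was one of the members with the least spread between the 3-month libraries, with an SD of 0.292 FPKM in knockout and 0.248 in control hearts.

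Mfap4 (chr11:61485431-61488900, plus strand, 6 exons) encodes a glycoprotein that binds elastin and microfibrils. Its 12-month values were 34.9 and 17.9 FPKM in knockout hearts, against 38.1 and 44.4 FPKM in control hearts. The first knockout library lay just under the controls and the second far below them, and the log2 difference was −0.69 (SE 0.35). At 3 months the values were 9.7, 16.4 and 18.0 FPKM in knockout hearts, against 7.47, 6.6 and 18.2 FPKM in control hearts. Here 2 controls were low and 1 was the highest of all 6 libraries, so the groups overlapped (log2 difference 0.50, SE 0.35; limma, Benjamini-Hochberg adjusted p = 0.471).

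Mfap5 (chr6:122505845-122529290, plus strand, 10 exons) encodes a small glycoprotein of the microfibril, also called MAGP-2. It was the member whose mean was higher in the 12-month knockout hearts, with 32.1 and 40.8 FPKM, against 37.0 and 33.1 FPKM in control hearts. Both controls lay between the knockout libraries, and the log2 difference of 0.05 (SE 0.16) turned to −0.27 when values were scaled to TPM. At 3 months Mfap5 had 9.85, 15.8 and 11.2 FPKM in knockout hearts, against 9.9, 6.82 and 11.7 FPKM in control hearts, again with overlap (log2 difference 0.35, SE 0.22; limma, Benjamini-Hochberg adjusted p = 0.423).

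The assembly genes encode proteins that bring tropoelastin onto the scaffold. Fbln5 (chr12:101746565-101819055, minus strand, 11 exons), which encodes fibulin-5, a tropoelastin-binding protein needed for elastic fibre formation in mice, had 5.19 and 7.58 FPKM in 12-month knockout hearts, against 6.5 and 6.4 FPKM in control hearts. Both controls lay between the knockout libraries, and the means of 6.39 ± 1.69 FPKM in knockout and 6.45 ± 0.0675 FPKM in control hearts (SD, n = 2 each) were nearly the same (log2 difference −0.03, SE 0.20). At 3 months Fbln5 had 3.0, 4.58 and 3.52 FPKM in knockout hearts, against 2.46, 3.28 and 4.19 FPKM in control hearts. These ranges overlapped (log2 difference 0.13, SE 0.18; limma, Benjamini-Hochberg adjusted p = 0.739).

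Efemp2 (chr19:5473954-5482517, plus strand, 11 exons) encodes fibulin-4, which links lysyl oxidase to tropoelastin. At 12 months it had 6.21 and 9.51 FPKM in knockout hearts, against 10.4 and 11.0 FPKM in control hearts. The groups were apart, the second knockout library lying close to the controls, and the log2 difference was −0.43 (SE 0.22). At 3 months the values were 6.79, 9.14 and 6.81 FPKM in knockout hearts, against 5.35, 5.3 and 7.48 FPKM in control hearts. The highest control lay above 2 of the knockout libraries, and the log2 difference was 0.29 (SE 0.16; limma, Benjamini-Hochberg adjusted p = 0.38).

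Emilin1 (chr5:30913402-30921277, plus strand, 8 exons) encodes a glycoprotein found where elastin meets the microfibril. Its 12-month values were 17.1 and 13.3 FPKM in knockout hearts, against 18.5 and 17.8 FPKM in control hearts. The groups did not overlap but the first knockout library lay near the lower control, and the log2 difference was −0.25 (SE 0.16). At 3 months it had 10.3, 17.4 and 8.69 FPKM in knockout hearts, against 10.5, 10.6 and 12.1 FPKM in control hearts. Knockout library 2 was the highest and knockout library 3 the lowest, with the controls between them (log2 difference 0.07, SE 0.22; limma, Benjamini-Hochberg adjusted p = 0.894).

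The crosslinking enzymes join tropoelastin molecules into an insoluble polymer. Lox (chr18:52516067-52529867, minus strand, 7 exons), lysyl oxidase, was the lowest member in all 10 libraries. At 12 months it had 1.76 and 2.66 FPKM in knockout hearts, against 2.51 and 2.45 FPKM in control hearts, and the controls lay between the knockout libraries (log2 difference −0.13, SE 0.19). At 3 months it had 1.17, 1.7 and 1.59 FPKM in knockout hearts, against 1.02, 1.33 and 1.86 FPKM in control hearts. The groups overlapped (log2 difference 0.06, SE 0.16; limma, Benjamini-Hochberg adjusted p = 0.883), and the sign turned to −0.01 after median-of-ratios scaling.

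Loxl1 (chr9:58287738-58313186, minus strand, 7 exons) encodes the lysyl oxidase-like enzyme needed for elastic fibre upkeep in adult mice. Its 12-month values were 10.6 and 15.5 FPKM in knockout hearts, against 18.7 and 18.6 FPKM in control hearts. Both knockout libraries were below both controls, with means of 13.1 ± 3.51 FPKM in knockout and 18.7 ± 0.0549 FPKM in control hearts (SD, n = 2 each) and a log2 difference of −0.51 (SE 0.21). At 3 months the enzyme had 11.7, 14.4 and 13.5 FPKM in knockout hearts, against 11.6, 13.4 and 15.0 FPKM in control hearts. The groups overlapped almost completely (log2 difference −0.01, SE 0.13; limma, Benjamini-Hochberg adjusted p = 0.97).

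**Figure D2:**
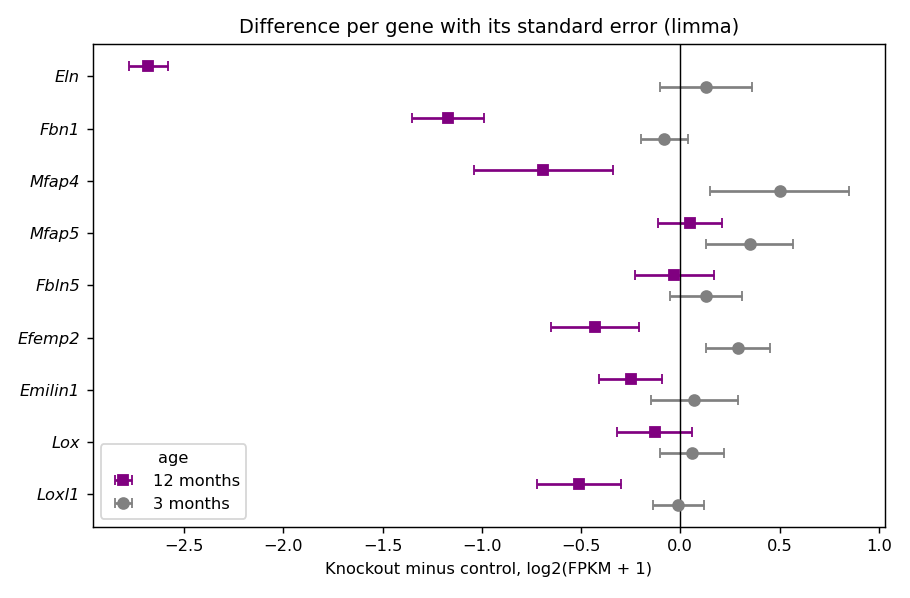
Log2 difference, knockout minus control on the log2(FPKM + 1) scale, of the 9 members at 12 months and at 3 months, with bars of 1 SE. Eln lies at −2.68 and Fbn1 at −1.17 at 12 months, and the 3-month differences run from −0.08 to 0.50.

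Counted over the set, 0 of 9 members were called at 3 months, where 91 of 12200 genes, or 0.746%, were called by limma (Benjamini-Hochberg), and 0 of the 9 had an unadjusted p under 0.05, where 18.2% of all tested genes had one. The groups overlapped in all 9, while 24.7% of all tested genes had groups apart. The knockout mean log2 was higher for 7 members and lower for 2, with a median difference of 0.13, beside 0.09 over all tested genes. At 12 months 1 of 9 was called, Eln, which was lower, where 0.395% of all genes were called and 0.228% were called lower. The difference was negative for 8 members and positive for 1, with a median of −0.43 beside 0.01 over all genes. The groups were apart for 6 members, all lower in knockout hearts (Eln, Fbn1, Mfap4, Efemp2, Emilin1 and Loxl1), where 50.3% of all genes were apart and 23.0% were apart and lower. The Eln call was lost without control replicate 1 (−2.66) or 2 (−2.69). The 12-month contrast chose the set, so nothing is read from these shares. In the difference between ages the other 7 members were not called, with values from −1.20 (Mfap4, SE 0.57, limma adjusted p = 0.353) to −0.16 (Fbln5, adjusted p = 0.839).

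Within a library the proportions of the members differed between the genotypes at 12 months. The 12-month shares use the Eln values for which the set was drawn up, so they are a description. Eln made up 8.11% and 7.99% of the summed FPKM of the 9 members in the 12-month knockout hearts, against 32.3% and 31.5% in the 12-month control hearts. At 3 months the share was 17.8%, 18.5% and 19.1% in knockout hearts, against 16.3%, 20.8% and 20.8% in control hearts, so the knockout values lay between the controls. Without Eln the other 8 members summed to 113 and 114 FPKM in 12-month knockout hearts, against 145 and 148 FPKM in control hearts. Eln was the highest of the 9 members in both 12-month controls and the fifth in both 12-month knockout libraries.

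The ratio of Eln to its partners does not depend on scaling between libraries. At 12 months it uses the Eln values for which the set was drawn up, so it is given as a description. Eln over Fbn1 was 2.1 and 1.47 in 12-month knockout hearts, against 5.07 and 4.78 in control hearts. Eln over Loxl1 was 0.94 and 0.638 in knockout hearts, against 3.7 and 3.66 in control hearts. Eln over Mfap5 was 0.31 and 0.243 in knockout hearts, against 1.87 and 2.06 in control hearts. Each ratio was lower in both knockout libraries. At 3 months Eln over Fbn1 was 3.69, 6.09 and 4.32 in knockout hearts, against 3.06, 3.6 and 5.27 in control hearts, which overlapped.

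**Figure D3:**
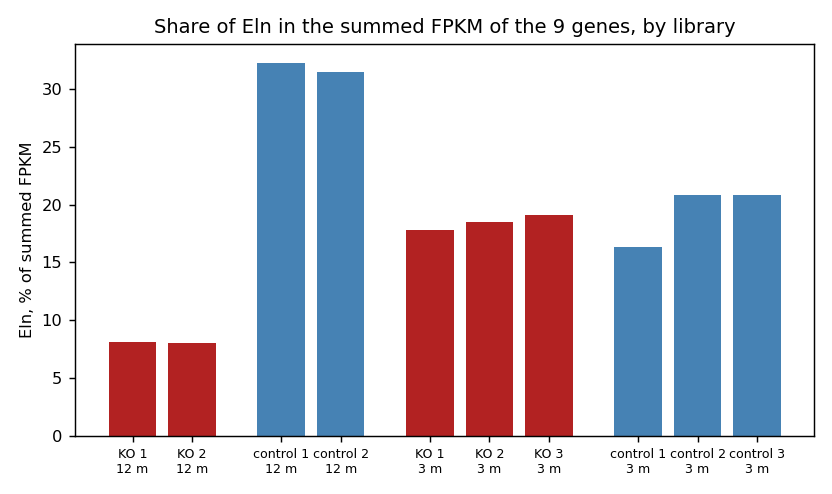
Share of Eln in the summed FPKM of the 9 members (percent) in each library, knockout left of control at each age. The 12-month knockout hearts lie at 8.11% and 7.99%, against 32.3% and 31.5% in the 12-month control hearts, and the 3-month shares run from 16.3% to 20.8%.

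Single libraries did not rank alike for all members. At 3 months control library 1 was the lowest of the 6 for Eln, Fbln5, Lox and Loxl1, and control library 3 was the highest for Eln, Mfap4, Lox and Loxl1. Knockout library 2 was the highest for Mfap5, Fbln5, Efemp2 and Emilin1 and the lowest for Fbn1. At 12 months knockout library 1 was the lowest of the 4 for 6 members. Knockout library 2, which was the lowest for Eln, Mfap4 and Emilin1, was also the highest for Mfap5, Fbln5 and Lox. The 12-month knockout libraries therefore agreed closely for Eln and differed for the other members.

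Promoter sequence was available for 4 of the 9 members (Fbn1, Fbln5, Efemp2 and Emilin1, in 7 windows), from RefSeq on GRCm38.p6. Eln, Lox, Loxl1, Mfap4 and Mfap5 are named only. The 250 bases before the start are shown for Fbn1, the scaffold gene with groups apart at 12 months, and for the first window of Fbln5, the tropoelastin-binding gene whose groups overlapped at both ages. They are Fbn1 at chr2:125506439-125506688 (minus strand, 59.2% G and C) and Fbln5 at chr12:101819120-101819369 (minus strand, 65.2%), beside a median of 52.4% over all windows. The Fbn1 window lies inside the span given above for the gene, so its RefSeq start is not the start of that span. Capitals mark matches on either strand to GGGCGG (the GC box), TATAAA (the TATA box) or CCAAT (the CCAAT box).
Fbn1: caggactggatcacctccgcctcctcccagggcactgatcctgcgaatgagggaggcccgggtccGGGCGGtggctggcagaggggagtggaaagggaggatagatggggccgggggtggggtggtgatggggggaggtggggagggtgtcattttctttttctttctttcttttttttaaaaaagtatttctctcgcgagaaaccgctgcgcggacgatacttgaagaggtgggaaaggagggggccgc
Fbln5: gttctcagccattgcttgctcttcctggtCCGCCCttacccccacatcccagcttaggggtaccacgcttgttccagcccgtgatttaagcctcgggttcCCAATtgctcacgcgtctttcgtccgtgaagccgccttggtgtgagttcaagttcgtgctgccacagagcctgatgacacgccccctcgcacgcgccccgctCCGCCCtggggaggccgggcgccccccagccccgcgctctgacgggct
Fbn1 had 1 GC box, 185 bases before the start, and no TATA or CCAAT box. Fbln5 had 2 GC boxes, 221 and 48 bases before the start, and 1 CCAAT box at 150. Over all 32851 windows of this length, 32.7% held GGGCGG, 12.4% TATAAA and 33.8% CCAAT. Neither held the AP-1 motif TGACTCA (4.46% of windows) or the Smad palindrome GTCTAGAC (0.167%). A match is a description of these letters and not a site.

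The tested genes beside Eln were not called at either age, where 0.395% of all tested genes were called at 12 months and 0.746% at 3 months. The neighbours were few, so nothing is read from the lack of calls. Within 100000 bases of Eln on chromosome 5, the tested neighbours at 12 months were Lat2, Eif4h and Limk1. Eif4h, a translation initiation factor gene, averaged 67.8 FPKM in knockout and 69.2 FPKM in control hearts (log2 difference −0.03; limma, Benjamini-Hochberg adjusted p = 0.906). Limk1, a kinase gene, averaged 1.91 FPKM in knockout and 2.44 FPKM in control hearts (−0.24, adjusted p = 0.563). Lat2, an adaptor gene of immune cells, averaged 1.63 FPKM in knockout and 2.28 FPKM in control hearts (−0.32, adjusted p = 0.532). At 3 months Lat2 averaged 3.85 FPKM in knockout and 2.36 FPKM in control hearts (0.51, SE 0.22, limma adjusted p = 0.272), with the sign opposite to that of 12 months, and Eif4h had 0.11 (adjusted p = 0.695). The Eif4h sign at 12 months turned without knockout replicate 2 (0.01).

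The wider elastic fibre system was read from 10 lists with 87 other genes. At 3 months 66 were tested and 0 were called by limma (Benjamini-Hochberg), with 13 at an unadjusted p under 0.05, where 18.2% of all tested genes had one. The 3-month difference was positive for 49 and negative for 17, with a median of 0.15, where 65.0% of all tested genes were positive. At 12 months 70 were tested, of which 1 was called higher and 0 lower, where 0.167% of all tested genes were called higher and 0.228% lower, with 22 at an unadjusted p under 0.05, where 13.6% of all tested genes had one. The 12-month difference was positive for 37 and negative for 33, with a median of 0.01, the same as over all genes.

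The gene called at 12 months was Timp4, an inhibitor of matrix metalloproteinases that is abundant in the heart. It had 16.6 and 17.9 FPKM in knockout hearts, against 4.3 and 3.98 FPKM in control hearts. Both knockout libraries were high and the groups were apart, with means of 17.3 ± 0.92 FPKM in knockout and 4.14 ± 0.224 FPKM in control hearts (SD, n = 2 each). The limma log2 difference was 1.83, with SE 0.11 and Benjamini-Hochberg adjusted p = 0.0303. The call held in 7 of 11 alternatives and was lost without control replicate 1 (1.87) or 2 (1.78), with a replicate block (adjusted p = 0.0595) and with no filter (0.105). At 3 months Timp4 averaged 4.25 ± 1.26 FPKM in knockout and 4.07 ± 1.07 FPKM in control hearts (SD, n = 3 each; log2 difference 0.04, adjusted p = 0.946), a sign that turned under both scaling alternatives (−0.05).

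Timp4 belonged to the elastase inhibitors, the list with the highest 12-month median (1.10 over 6 tested genes, 5 positive and 1 negative). Timp3, an inhibitor that stays bound to the matrix, had 115 and 67.5 FPKM in knockout hearts, against 40.5 and 40.7 FPKM in control hearts (log2 difference 1.10; limma, Benjamini-Hochberg adjusted p = 0.269). Both knockout libraries were above both controls, the first more so. At 3 months all 7 tested inhibitors had a positive difference, with a median of 0.27 and none called. All 7 tested elastases were positive at that age as well (median 0.32), where 65.0% of all tested genes were positive (median 0.09).

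The elastases themselves had a 12-month median of −0.04 over 6 tested genes, 3 positive and 3 negative. Mmp14, a membrane-bound metalloproteinase, had 5.03 and 10.8 FPKM in knockout hearts, against 16.2 and 16.1 FPKM in control hearts (log2 difference −1.03, SE 0.35; limma, Benjamini-Hochberg adjusted p = 0.353). Ctsl, cathepsin L, had 133 and 320 FPKM in knockout hearts, against 117 and 116 FPKM in control hearts (0.82, SE 0.45, adjusted p = 0.491). Both were apart between groups, in opposite directions, with the knockout libraries spread widely.

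Among 8 other microfibril genes tested at 12 months, 5 differences were positive and 3 negative (median 0.10). Mfap2, which encodes the microfibril glycoprotein MAGP-1, had 1.72 and 2.1 FPKM in knockout hearts, against 5.53 and 5.56 FPKM in control hearts (log2 difference −1.17, SE 0.14; limma, Benjamini-Hochberg adjusted p = 0.109). Ltbp2, a latent TGF-beta binding protein of microfibrils, had 4.65 and 5.32 FPKM in knockout hearts, against 1.03 and 1.89 FPKM in control hearts (1.30, SE 0.23, adjusted p = 0.184). The groups were apart for both, and Mfap2 lay low while Ltbp2 lay high in knockout hearts. At 3 months Mfap2 averaged 2.02 ± 1.16 FPKM in knockout and 1.67 ± 0.986 FPKM in control hearts (SD, n = 3 each; 0.17, adjusted p = 0.802), and Ltbp2 was under the filter.

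The other lysyl oxidase genes, Loxl2 and Loxl3, both had negative differences at both ages. Loxl2 had 3.81 and 2.99 FPKM in 12-month knockout hearts, against 6.51 and 6.42 FPKM in control hearts (log2 difference −0.77, SE 0.15; limma, Benjamini-Hochberg adjusted p = 0.211). At 3 months it averaged 1.38 ± 0.124 FPKM in knockout and 1.9 ± 0.219 FPKM in control hearts (SD, n = 3 each; −0.29, SE 0.12, adjusted p = 0.27), and its groups were apart there too. Loxl3 overlapped at both ages (−0.13 at 12 months, adjusted p = 0.728), and its sign turned without knockout replicate 1 at 3 months or without knockout replicate 2 at 12 months (0.01 each).

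Among the other fibulin and emilin genes, 7 were tested at 12 months, 3 positive and 4 negative (median −0.03). Emilin2 had 17.9 and 7.58 FPKM in knockout hearts, against 21.8 and 21.8 FPKM in control hearts (log2 difference −0.84, SE 0.41; limma, Benjamini-Hochberg adjusted p = 0.456). Fbln2 averaged 36.1 ± 4.27 FPKM in knockout and 25.2 ± 1.61 FPKM in control hearts (SD, n = 2 each; 0.50, adjusted p = 0.283). Fbln1, the list's biggest difference at 3 months, had 50.2, 74.4 and 58.1 FPKM in 3-month knockout hearts, against 28.2, 34.7 and 46.3 FPKM in control hearts. The groups were apart, and the difference of 0.74 (SE 0.20) was not called (limma, Benjamini-Hochberg adjusted p = 0.146). At 12 months Fbln1 overlapped (0.01, adjusted p = 0.988).

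Of 8 proteoglycans and glycoproteins that bind elastic fibres, 4 were positive and 4 negative at 12 months (median −0.15). Clu, the chaperone clusterin, had 498 and 672 FPKM in knockout hearts, against 211 and 216 FPKM in control hearts (log2 difference 1.43, SE 0.18; limma, Benjamini-Hochberg adjusted p = 0.121). Fn1, fibronectin, on which microfibrils are assembled, had 11.3 and 11.0 FPKM in knockout hearts, against 19.7 and 21.0 FPKM in control hearts (−0.81, SE 0.11, adjusted p = 0.13). Groups were apart for both. At 3 months Clu averaged 359 ± 92.0 FPKM in knockout and 212 ± 26.9 FPKM in control hearts (SD, n = 3 each; 0.73, SE 0.19, adjusted p = 0.135), apart as well.

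**Figure D4:**
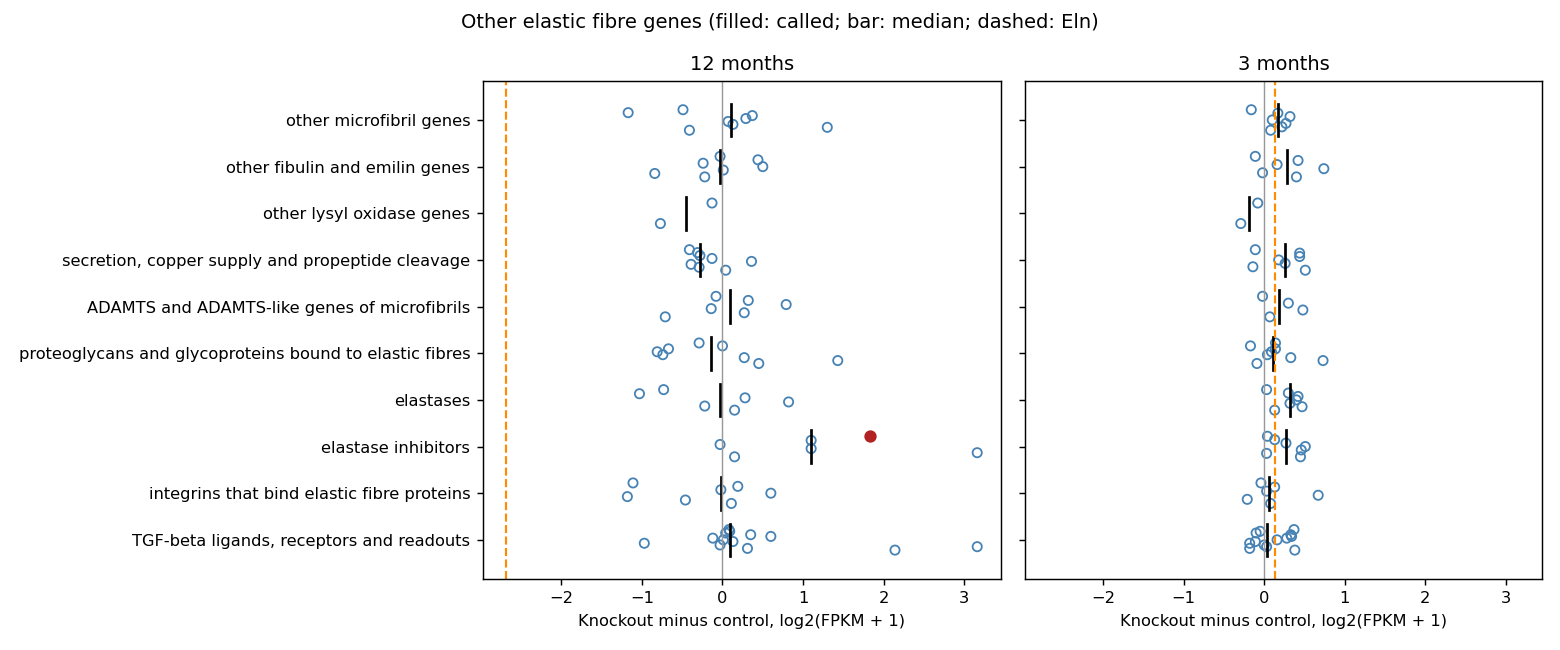
Log2 difference, knockout minus control on the log2(FPKM + 1) scale, of every tested gene in the 10 lists of other elastic fibre genes, with the 12-month and 3-month panels on 1 shared axis, the list median as a bar, called genes filled and Eln as a dashed line. The elastase inhibitors have the highest 12-month median (1.10) and the other lysyl oxidase genes the lowest (−0.45).

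Markers of the cells that make or surround elastic fibres were set beside these values, and their part in the Eln difference was not tested. Of 9 vascular smooth muscle markers tested at 12 months, 2 differences were positive and 7 negative (median −0.25), and their summed level was 230 to 313 FPKM in knockout hearts, against 387 FPKM in both control hearts. Acta2, smooth muscle actin, had 112 and 93.4 FPKM in knockout hearts, against 198 and 198 FPKM in control hearts (log2 difference −0.94, SE 0.14; limma, Benjamini-Hochberg adjusted p = 0.159). Myh11, the myosin specific to smooth muscle, had 4.8 and 4.78 FPKM in knockout hearts, against 5.83 and 5.98 FPKM in control hearts (−0.25, adjusted p = 0.417), and Tagln overlapped (−0.27). The Eln difference of −2.68 lay below that of every one of these markers, the lowest of which was −0.94. Eln was chosen for that difference, so nothing is read from this order.

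Of 8 fibroblast markers tested at 12 months, 1 was positive and 7 negative (median −0.45), and their sum was 1546 to 1646 FPKM in knockout hearts, beginning below and ending above that of control hearts (1590 to 1600 FPKM). Pdgfra, a receptor that marks cardiac fibroblasts, had 8.15 and 7.81 FPKM in knockout hearts, against 10.9 and 10.2 FPKM in control hearts (log2 difference −0.36; limma, Benjamini-Hochberg adjusted p = 0.31). Markers of arterial endothelium summed to 33.5 to 37.0 FPKM in knockout and 35.1 to 35.6 FPKM in control hearts. Valve and adventitia markers summed to 113 to 177 FPKM in knockout and 109 to 110 FPKM in control hearts. Of the 6 tested in that list, 2 were positive and 4 negative (median −0.17), so the sum and the median went opposite ways. None of these lists had a marker at 0 in all libraries of 12 months.

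The marker lists with the lowest 12-month medians were those of fat, atrial muscle and the heart's outer layer. Of 7 adipocyte markers tested at 12 months, 6 were negative (median −1.77), and their sum was 29.5 to 49.6 FPKM in knockout hearts, against 74.6 to 80.5 FPKM in control hearts. Plin1, the lipid droplet coat protein, fell to 0.547 and 0.423 FPKM in knockout hearts, against 5.55 and 5.06 FPKM in control hearts (log2 difference −2.09, SE 0.15; limma, Benjamini-Hochberg adjusted p = 0.041), and Ucp1, the uncoupling protein of brown fat, was listed at 0 in both knockout libraries, against 8.8 and 8.01 FPKM in control hearts (adjusted p = 0.013). Both genes averaged under 1 FPKM in knockout hearts and passed the filter only through the control hearts. Both calls were lost without control replicate 1 (Plin1 −2.03, Ucp1 −3.17) or 2 (Plin1 −2.14, Ucp1 −3.29). They were also lost with no filter (limma adjusted p = 0.128 for Plin1 and 0.0721 for Ucp1). Of 6 mesothelial and epicardial markers, 5 were negative (median −1.10), with a sum of 6.14 to 22.6 FPKM in knockout hearts, against 33.0 to 34.3 FPKM in control hearts. Msln, mesothelin, had 1.31 and 5.03 FPKM in knockout hearts, against 10 FPKM in both control hearts (−1.56, adjusted p = 0.327). The atrial list had 5 of 6 negative (median −1.22), while its sum, mostly Nppa, was 13478 to 15790 FPKM in knockout and 6112 to 6264 FPKM in control hearts. The pericyte (−0.22), endothelial (−0.07), cardiomyocyte (−0.01) and macrophage (0.05) medians were closer to that of all genes, and no airway marker was tested at 12 months.

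At 3 months smooth muscle markers summed to 215 to 283 FPKM in knockout and 155 to 235 FPKM in control hearts, and fibroblast markers to 713 to 1230 FPKM in knockout and 610 to 860 FPKM in control hearts. All 8 fibroblast markers had a positive difference (median 0.22), where 65.0% of all tested genes were positive (median 0.09). By limma 0 of the 8 had an unadjusted p under 0.05, where 18.2% of all tested genes had one. Acta2 averaged 119 ± 14.9 FPKM in knockout and 84.7 ± 16.5 FPKM in control hearts at that age (SD, n = 3 each; log2 difference 0.49, SE 0.17; limma, Benjamini-Hochberg adjusted p = 0.192). Among the other markers at 3 months, the atrial peptide gene Nppa was called higher (3.74, limma adjusted p = 0.0402), the 1 called of 6 atrial markers. Of these 6, 5 were positive and 1 negative (median 2.23). The atrial marker Myl7 spread widely within each label, from 113 to 2568 FPKM in knockout and 39.4 to 779 FPKM in control hearts. The airway genes Scgb1a1 (−3.71, limma adjusted p = 0.00129) and Bpifa1 (−1.99, adjusted p = 0.0124) were called lower in knockout hearts. The Nppa call was lost without control replicate 1 (3.41) or 2 (3.20) and without knockout replicate 2 (3.56) or 3 (3.71), with median-of-ratios scaling (adjusted p = 0.086) and with no filter (0.207). Both airway genes averaged under 1 FPKM in knockout hearts and passed the filter only through the control hearts. With no filter the calls of Scgb1a1 (limma adjusted p = 0.0543) and Bpifa1 (0.128) were lost as well. Their part in the member values was not tested.

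**Figure D5:**
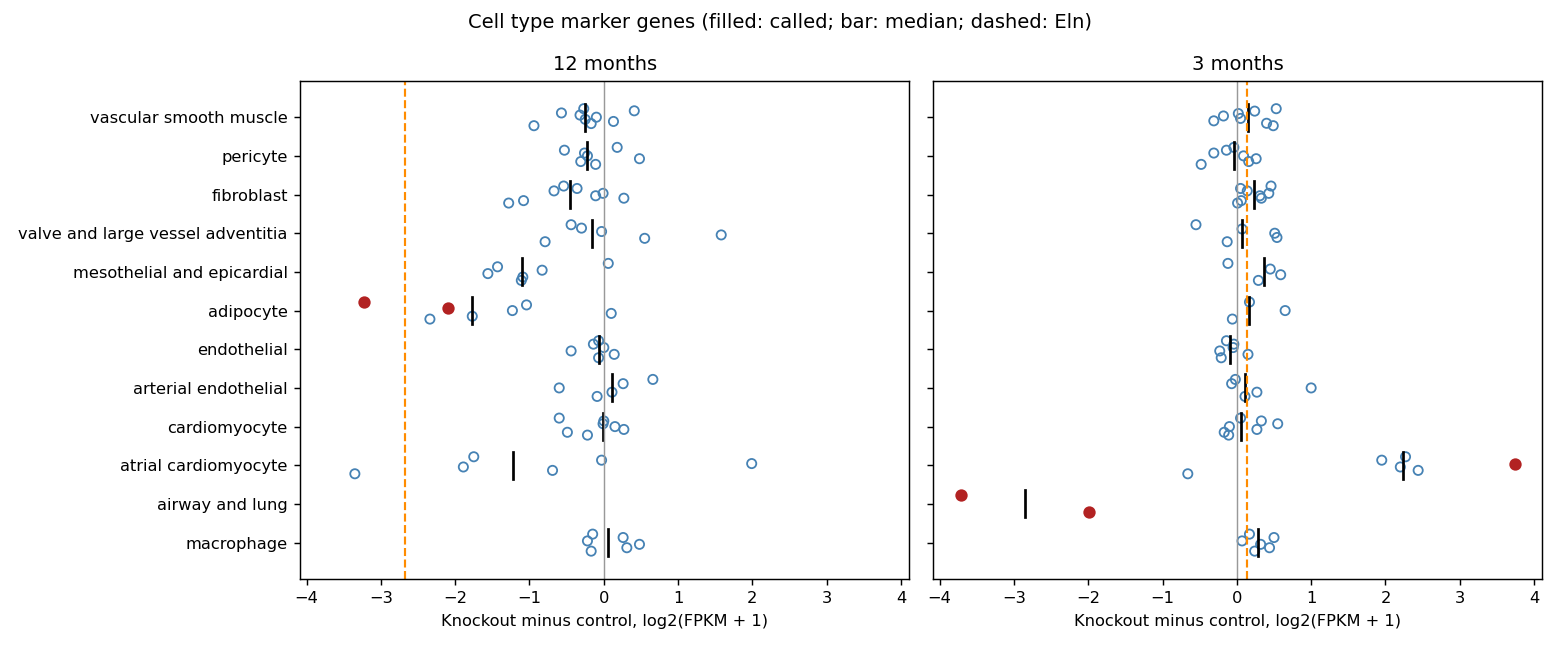
Log2 difference, knockout minus control on the log2(FPKM + 1) scale, of every tested marker gene by cell type list, with the 12-month and 3-month panels on 1 shared axis, list medians as bars, called genes filled and Eln as a dashed line. The adipocyte list has a 12-month median of −1.77, the smooth muscle list −0.25 and the fibroblast list −0.45.

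The genes whose pattern was most like that of Eln were found by the root mean square difference in log2(FPKM + 1) after centring each gene within each age, over 11580 genes. Over all 10 libraries the closest were Scd1 (0.31), Col3a1 (0.34), Fasn (0.36) and Adipoq (0.36), where the median gene differed by 0.9. Scd1, a fatty acid desaturase, had 5.39 and 5.49 FPKM in 12-month knockout hearts, against 62.6 and 63.3 FPKM in control hearts, and so, like Eln, close pairs within each group. Col3a1, a fibrillar collagen, had 140 and 90.5 FPKM in knockout hearts, against 402 and 392 FPKM in control hearts. Fasn, fatty acid synthase, had 9.26 and 7.53 FPKM in knockout hearts, against 35.6 and 30.6 FPKM in control hearts. These were low in both knockout libraries.

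Adipoq, the fat cell hormone adiponectin, had 0.566 and 1.52 FPKM in 12-month knockout hearts, against 11.0 and 7.46 FPKM in control hearts. Of these 4 genes Scd1 was called at 12 months (log2 difference −3.31; limma, Benjamini-Hochberg adjusted p = 0.00617), and the call was lost without control replicate 1 (−3.32) or 2 (−3.30). These genes were picked for likeness to Eln with the 12-month values, so nothing is read from the Scd1 call. Over the 6 libraries of 3 months alone, the 5 most like Eln were Timp3 (0.08), Amigo2 (0.10), Aebp1 (0.10), Peg3 (0.11) and the member Fbln5 (0.11), beside 0.36 for the median gene. Their 12-month log2 differences were 1.10 for Timp3, 0.13 for Amigo2, −0.07 for Aebp1, −0.53 for Peg3 and −0.03 for Fbln5. Eln was chosen for its 12-month difference, and 0.25% of all tested genes had a lower one, so nothing is read from the distance to Eln.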

How the data were processed

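RNA from dissected mouse hearts was sequenced, as strand-specific poly(A) libraries at 3 months and by a sequencing institute's own platform at 12 months, per the labels' protocols. The authors deposited FPKM values in a table for each age, without counts. Per the submitters' processing notes the tools were Cufflinks 2.1.1, STAR 2.5.1b, TopHat2 2.1.0 and FastQC, with the build names GRCm38 and mm10. Which tool made which step is not stated there. Genes that repeated an identifier were summed, and positions and symbols came from GENCODE M21 (GRCm38). By its name, the deposited 12-month table leaves out outliers, by a rule not given here.

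From the deposited FPKM, log2(FPKM + 1) was computed for genes averaging 1 FPKM or more, 12200 at 3 months and 13179 at 12 months, and tested with limma 3.58.1 in R 4.3.3 (trend, Benjamini-Hochberg adjustment over all tested genes). The fits had 4 residual degrees of freedom at 3 months and 2 at 12 months. The difference between ages was the genotype by age term of 1 fit over all 10 libraries, with 6 residual degrees of freedom, on genes passing the filter at both ages. Levels were not tested between ages because tables and library preparation differ. A pseudocount of 1 shrinks the differences of low genes. The scripts were tested on simulated data. Groups followed the labels. The members and gene lists were chosen with earlier results of these data known.

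The genes named with values were the members, called genes of the lists, the list genes with the largest differences, the first markers of each list, and the 5 genes most like Eln by 2 measures. Of these, 2 genes are not reported here, and they stay in the counts and medians of all genes and lists. The neighbours of Eln were chosen by position. The alternatives were a pseudocount of 0.1, a mean of at least 5 FPKM, no filter, median-of-ratios or TPM scaling, no trend, a replicate block, and leaving out each library.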

Additional observations from a re-analysis of the deposited data

Results flagged for a closer look

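The difference between the ages in the effect of the knockout label passed the limma interaction test for 7 of the genes named here. It was read as the 12-month minus the 3-month log2 difference, with Benjamini-Hochberg adjustment over 11580 genes, of which 160 were called. It rests on 5 knockout and 5 control libraries from 2 tables, and on the 12-month values for which the set was chosen and with which the genes most like Eln were ranked.

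Among the members, the difference was −2.81 for Eln (adjusted p = 0.00261) and −1.09 for Fbn1 (adjusted p = 0.0311). Among other elastic fibre genes it was 1.79 for Timp4 (adjusted p = 0.0203). The smooth muscle gene Acta2 had −1.44 (adjusted p = 0.0198). Of the genes most like Eln, Scd1 had −3.51 (adjusted p = 0.0168), Col3a1 −1.84 (adjusted p = 0.0172) and Fasn −1.73 (adjusted p = 0.0168).

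The Eln call held in every alternative run for it, libraries left out included. Eln was chosen for its 12-month difference, so nothing is read from this. Without either 12-month control the calls of Fbn1 (−1.12 and −1.06), Timp4 (1.84 and 1.75), Acta2 (−1.44 each), Scd1 (−3.52 and −3.5), Col3a1 (−1.82 and −1.86) and Fasn (−1.62 and −1.83) were lost. The calls of Timp4 and Fbn1 were also lost with TPM scaling (1.59, adjusted p = 0.0589, and −1.28, adjusted p = 0.067) and with no filter (1.79, adjusted p = 0.0536, and −1.09, adjusted p = 0.0599). The Acta2 call was also lost without control replicate 2 (−1.39) or knockout replicate 1 (−1.43) of 3 months, the Scd1 and Col3a1 calls without control replicate 2 of 3 months (−3.26 and −1.76), and the Fasn call without knockout replicate 1 of 3 months (−1.66). The 12-month libraries also differ by genotype label in sex-linked expression, and whether that bears on these genes cannot be told apart from the genotype. Table and library preparation differ between the ages as well, so neither can be told apart from age here.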

How the results depend on the processing

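With 2 libraries per group at 12 months, calls there depended on single libraries. The Eln difference at 12 months ran from −2.98 to −2.66 over 11 alternatives and was called in 9. It was lost without control replicate 1 (−2.66) or 2 (−2.69), where the lone control was assumed to vary like the other group. Called genes at 12 months numbered 52, and leaving out 1 library gave from 0 (without either control, with 440 and 437 at an unadjusted p under 0.05) to 4409 (without knockout replicate 1, and 654 without knockout replicate 2). With no filter 17 were called. At 3 months 91 were called, against 59 with median-of-ratios scaling, 10 with no filter, 134 (within 1.5 times) with TPM scaling, and from 22 (without control replicate 2) to 81 with 1 library left out, 29 without control replicate 3 and 59 without knockout replicate 2 among them. For the difference between ages 160 were called, and from 40 (without control replicate 1 at 12 months) to 787 (without knockout replicate 1 at 12 months) with 1 library left out, with 102, 92, 83 and 93 without control replicates 1 and 2 and knockout replicates 1 and 3 of 3 months, and 41 and 350 without control replicate 2 and knockout replicate 2 of 12 months. In a 12-month fit with 1 library left in a group, the spread came from the other group only. The robust SD of the log2 ratio was 0.113 between the 12-month controls and 0.416 between the 12-month knockout libraries. The cause of the moves in these counts was not tested. TPM scaling moved the 12-month median of all genes to −0.27, against 0.01 without it, and 12-month differences under TPM carry that shift.

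Replicate numbers did not pair the libraries. Same-numbered libraries had correlations of deviations of −0.12, −0.46 and −0.14 at 3 months and −0.01 at 12 months. A replicate block gave 29 calls at 3 months and 40 at 12 months, and it gave −2.68 for Eln at 12 months. Among the other genes named here it lost the calls of Timp4 (adjusted p = 0.0595), Plin1 (0.0728) and, at 3 months, Nppa (0.0604).

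Over 27 results for members, 353 alternative values were computed, of which 317 kept direction and side of the threshold, 11 lost a call, 5 gained one and 20 changed sign. For the other named genes these were 1226, 39, 45 and 72 of 1382. Genes under a stricter filter gave no value there. The changes of sign at 3 months were, with TPM scaling, Emilin1 −0.03, Lox 0, Timp4 −0.05, Pdgfra −0.04, Col3a1 −0.07, Amigo2 −0.02 and Aebp1 −0.07. With median-of-ratios scaling they were Emilin1 −0.03, Lox −0.01, Timp4 −0.05, Fn1 0, Pdgfra −0.03, Col3a1 −0.08, Amigo2 −0.02 and Aebp1 −0.07, and with a pseudocount of 0.1 Adipoq 0.17. At 12 months they were, with TPM scaling, Mfap5 −0.27, Fbln1 −0.31, Amigo2 −0.11 and Atox1 −0.28. In the difference between ages they were Myh11 −0.11 and Amigo2 −0.09 with TPM scaling and Loxl3 0, Aebp1 0.01 and Itgav 0.02 with median-of-ratios scaling.

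Differences whose sign changed when 1 library was left out had these ranges over the libraries left out. At 3 months they were Eln −0.08 to 0.36, Fbln5 −0.02 to 0.27, Emilin1 −0.20 to 0.26, Lox −0.06 to 0.19, Loxl1 −0.10 to 0.07, Timp4 −0.08 to 0.26, Mfap2 −0.13 to 0.45, Fn1 −0.05 to 0.33, Loxl3 −0.13 to 0.01, Itgb6 −0.09 to 0.02, Emilin2 −0.12 to 0.10, Timp3 −0.02 to 0.32, Adipoq −0.36 to 0.13, Myh11 −0.57 to 0.01, Pdgfra −0.05 to 0.12, Scd1 −0.07 to 0.67, Col3a1 −0.12 to 0.16, Fasn −0.33 to 0.02, Amigo2 −0.13 to 0.26, Aebp1 −0.14 to 0.24, Peg3 −0.09 to 0.36 and Adamtsl4 −0.06 to 0.53. At 12 months they were Mfap5 −0.12 to 0.22, Fbln5 −0.27 to 0.20, Lox −0.33 to 0.07, Loxl3 −0.27 to 0.01, Fbln1 −0.32 to 0.34, Amigo2 −0.03 to 0.29, Aebp1 −0.25 to 0.12, Eif4h −0.07 to 0.01 and Atox1 −0.01 to 0.08. In the difference between ages they were Fbln5 −0.40 to 0.07, Lox −0.39 to 0.02, Loxl3 −0.19 to 0.09, Ctsl −0.13 to 1.13, Myh11 −0.26 to 0.31, Amigo2 −0.13 to 0.25, Aebp1 −0.31 to 0.10, Slc31a1 −0.62 to 0.02 and Itgav −0.40 to 0.32. Itgav was 0.03 without control replicate 2 of 3 months. The depth at 3 months is unknown, so how far it limits low members such as Lox cannot be given.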

Other observations

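Of 13 TGF-beta ligands, receptors and readouts tested at 12 months, 10 differences were positive and 3 negative (median 0.09), and none was called by limma (Benjamini-Hochberg), with 4 at an unadjusted p under 0.05, where 13.6% of all tested genes had one. Ccn2, connective tissue growth factor, had 87.6 and 313 FPKM in knockout hearts, against 36.8 and 36.7 FPKM in control hearts (log2 difference 2.14, SE 0.64, adjusted p = 0.307). Both knockout libraries were above both controls, the second far more so. At 3 months Ccn2 averaged 35.4 ± 4.95 FPKM in knockout and 26.8 ± 2.79 FPKM in control hearts (SD, n = 3 each; 0.38, adjusted p = 0.214). Of 7 integrin genes tested at 12 months, 3 were positive and 4 negative (median −0.02). Itgb6, the integrin subunit that helps to activate latent TGF-beta, had 3.79 and 2.09 FPKM in knockout hearts, against 7.05 and 7.59 FPKM in control hearts (−1.11, SE 0.25, adjusted p = 0.246). Itga9 had 23.0 and 5.95 FPKM in knockout hearts, against 25.1 and 31.6 FPKM in control hearts (−1.18, SE 0.64, adjusted p = 0.487), with 1 knockout library near the controls. Itgav, the integrin alpha-V subunit, had the largest 3-month difference of this list, with 4.41, 9.12 and 2.73 FPKM in knockout hearts, against 2.72, 2.21 and 3.24 FPKM in control hearts (0.67, SE 0.31, adjusted p = 0.295).

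Of 8 genes of secretion, copper supply and propeptide cleavage tested at 12 months, 2 were positive and 6 negative (median −0.28). Slc31a1, the copper importer, averaged 10.3 ± 3.45 FPKM in knockout and 13.6 ± 0.108 FPKM in control hearts (SD, n = 2 each; limma log2 difference −0.41, adjusted p = 0.519). Atox1, a copper chaperone, averaged 66.2 ± 15.9 FPKM in 3-month knockout and 45.6 ± 5.07 FPKM in 3-month control hearts (SD, n = 3 each; limma 0.51, SE 0.18, adjusted p = 0.198), with the groups apart. Of 6 ADAMTS and ADAMTS-like genes tested at 12 months, 3 were positive and 3 negative (median 0.10). Adamtsl4, whose product binds fibrillin microfibrils, had 46.7 and 31.9 FPKM in knockout hearts, against 27.4 and 17.5 FPKM in control hearts (limma 0.79, SE 0.30, adjusted p = 0.383).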
